A study of Rattus norvegicus with 50 samples.

Results

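The comparison is that of day 14 with day 0 in rats whose knee joint received sodium monoiodoacetate (MIA). It rests on 12 of the 50 arrays of the series, namely the 6 arrays of MIA rats at day 14 and the 6 arrays of the same rats at day 0, chosen by the treatment and day in the sample labels and paired by the animal that the labels name. The animals were male Wistar rats, a laboratory strain. MIA was given once into the right knee, the day 0 sample was drawn before it, and blood came from the tail vein at each time. The 4 naive rats, used here as the untreated reference over the same days, received no injection and no vehicle, so handling, anaesthesia and the needle are not separated from MIA by these groups. The methods state 6 samples for each group, and the labels give 6 MIA and 4 naive rats at each of 5 days. Each array measured the RNA of 1 whole blood sample on the Affymetrix Rat Gene 2.0 ST design, and the values are log2 intensities, on which a difference of 1 is a doubling.

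MIA blocks glyceraldehyde-3-phosphate dehydrogenase, an enzyme of glycolysis. In the joint it kills chondrocytes, the cells that maintain cartilage, and the rats develop cartilage loss and joint pain that resemble osteoarthritis. Whole blood RNA comes from all circulating cells at once. In rats a large share of it is from reticulocytes, the young red cells that still hold RNA, and the rest is from neutrophils, monocytes, lymphocytes and platelets. A change in a blood transcript can therefore reflect fewer cells of a type or less of the transcript per cell, and these cannot be told apart in bulk samples.

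The arrays were of blood. Over the 31 measured erythroid genes the mean level per array was 8.29 to 9.05 at day 0 and 8.09 to 8.66 at day 14 on the log2 scale, and over the 25 platelet genes it was 6.79 to 7.43 and 6.83 to 7.45. Skin genes (18 measured) averaged 1.92 to 2.46 and muscle genes (10 measured) 2.07 to 2.45 over these 12 arrays, against array medians of 2.12 to 2.37. The array of MIA rat 2 at day 14 had the lowest median of the 49 arrays fitted, at 2.12, and the median change of this rat over all probe sets was −0.16, against −0.03 to 0.03 in the other 5 MIA rats. Values without this rat are given beside many of the lists below. The array of MIA rat 4 at day 21 correlated with the others at 0.243 on average, against 0.920 to 0.954 for the remaining 49, and was left out of the fit. The small number of rats limits the precision of every value below.

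Of 36685 probe sets, 7 passed the test at an adjusted p under 0.05 in MIA rats (0.0191% of those tested). Of them 1 rose (0.00273%) and 6 fell (0.0164%). Of the 7, 5 carry a single gene symbol, which were Hcar2, Clic2, Gng12, Tnk2 and Tcp11l1, and 2 carry none. The test was limma's moderated test of the mean within-rat change, with 1 variance per probe set from all 49 arrays and Benjamini-Hochberg adjustment over all probe sets. Each of the 7 moved the same way in 6 of 6 MIA rats, while 1.37% of all probe sets were higher in 6 of 6 and 2.36% lower. The calls depended on the way the rats were taken into account. With no replicate block for the rat, and also when the fit held only the 12 MIA arrays of days 0 and 14, 0 probe sets passed, with 2438 and 2008 at an unadjusted p under 0.05 against 2940 (8.01%) in the fit described here. The changes themselves are the same in all 3 fits, since each is the mean of the 6 within-rat differences.

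Hcar2, the receptor for niacin and for the ketone body beta-hydroxybutyrate on neutrophils and monocytes, was the transcript that rose. Its level in the 6 MIA rats ran from 4.10 through a median of 4.52 to 5.32 at day 0, and from 4.84 through 5.29 to 5.87 at day 14. The 2 days overlapped because 1 rat, rat 3, started at 5.32, but every rat was higher at day 14, by 0.39 to 1.34. The mean change was 0.74 ± 0.12 (SE, n = 6 rats; adjusted p = 0.0109), a 1.67-fold higher intensity. In the 4 naive rats Hcar2 was at 5.04, 5.14, 4.76 and 3.91 at day 0 and at 5.61, 6.06, 5.45 and 5.13 at day 14, so it rose there too, as 1 of 4 probe sets called in naive rats (0.0109%, with 8.24% at an unadjusted p under 0.05), by 0.85 ± 0.15 (SE, n = 4; adjusted p = 0.0287). The MIA change minus the naive change was −0.11 (95% interval −0.51 to 0.28).

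Clic2, a member of the chloride intracellular channel family, fell. Its lowest, median and highest levels in MIA rats were 7.54, 7.93 and 9.13 at day 0 and 6.25, 6.94 and 8.23 at day 14. The days overlapped and all 6 rats were lower at day 14, by a mean of 0.99 ± 0.17 (SE; change −0.99, adjusted p = 0.0109). The naive rats had 7.85, 4.57, 8.42 and 7.63 at day 0 and 7.18, 2.50, 7.76 and 6.57 at day 14. All 4 naive rats were lower, naive rat 2 stood far below the rest on both days, and the fall was of the same order as after MIA (−1.12 ± 0.20, adjusted p = 0.0317; MIA minus naive 0.13, 95% interval −0.40 to 0.66).

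Gng12, the gamma 12 subunit of heterotrimeric G proteins, fell by 0.71 ± 0.13 in MIA rats (SE, n = 6; adjusted p = 0.0296). Its levels there ran from 6.28 through 6.68 to 7.67 at day 0 and from 5.76 through 6.13 to 6.52 at day 14. Rat 2 supplied the deepest drop, of 1.68, and rat 4 the shallowest, of 0.07; without rat 2 the mean change was −0.52. In naive rats Gng12 was at 6.71, 6.62, 6.24 and 6.43 at day 0 and at 6.17, 6.33, 5.73 and 5.41 at day 14, lower in 4 of 4 (−0.59 ± 0.16, adjusted p = 0.252). The MIA change minus the naive change was −0.12, with a 95% interval of −0.53 to 0.30.

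Tcp11l1 fell by 0.79 ± 0.15 (SE, n = 6; adjusted p = 0.0429). It ran from 4.75 through a median of 5.48 to 5.99 at day 0 and from 3.96 through 4.50 to 5.36 at day 14. All 6 MIA rats were lower, with overlap between the days. Of the naive rats, which were at 5.69, 5.47, 4.88 and 4.04 and then at 5.27, 4.39, 4.74 and 4.54, 3 were lower and 1 was higher, with a mean change of −0.29 ± 0.19 (adjusted p = 0.724). The MIA change minus the naive change was −0.51 (95% interval −0.996 to −0.0201), with an adjusted p of 0.996.

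Tnk2, a non-receptor tyrosine kinase that acts downstream of the small GTPase Cdc42, differed from the other 4 in how the naive rats behaved. In MIA rats it ran from 3.62 through 3.80 to 3.98 at day 0 and from 2.78 through 3.03 to 3.22 at day 14, and the days did not overlap, which held for 36 of 14557 named genes (0.247%). The fall was 0.78 ± 0.15 (SE, n = 6; adjusted p = 0.0374). In naive rats Tnk2 was at 3.24, 3.11, 2.97 and 2.49 at day 0 and at 3.93, 3.13, 3.18 and 3.09 at day 14, higher in 4 of 4 rats, as were 8.47% of all probe sets, against 9.84% lower in 4 of 4 (0.38 ± 0.18, adjusted p = 0.583). The MIA change minus the naive change was −1.16, with a 95% interval of −1.64 to −0.69, and it was the smallest p of all 36685 probe sets for that difference. It did not pass adjustment (adjusted p = 0.584). The MIA rats also started higher, with a mean of 3.80 against 2.95 in naive rats at day 0, before any injection, and at day 14 the means were 3.02 and 3.33. The study placed Tnk2 in one of its patterns on these same samples, so its direction here is not independent evidence.

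The 2 probe sets without a symbol both fell. Probe set 17601861 went from a range of 2.16 to 3.78 at day 0 to one of 0.61 to 1.51 at day 14, with no overlap, a mean change of −1.59 ± 0.28 (adjusted p = 0.0215) and a naive change of −0.18 ± 0.34. At day 0 rats 1 and 3 were highest, at 3.78 and 3.23, and the other 4 lay near their array medians. The MIA rats again started above the naive rats (2.74 against 1.83). Probe set 17697904 went from 5.15 to 5.90 down to 4.57 to 5.28, a change of −0.65 ± 0.11 (adjusted p = 0.0109), with a naive change of −0.33 ± 0.13.

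**Figure D1:**
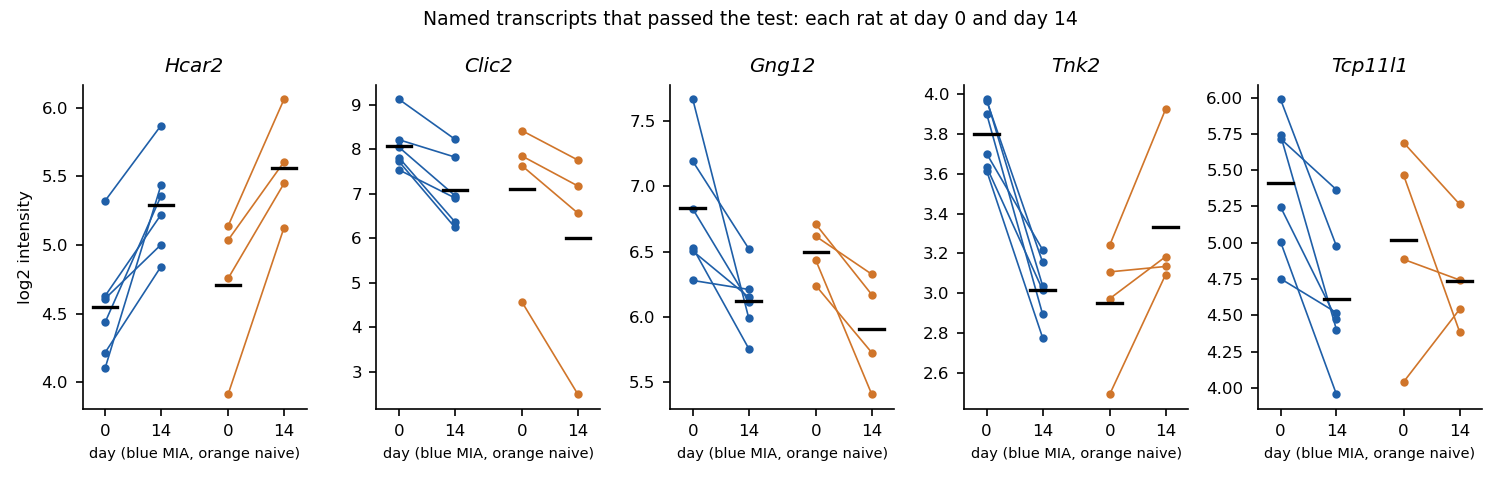
Log2 intensity of the 5 named transcripts that passed the test, at day 0 and day 14, with a line for each rat (blue, 6 MIA rats; orange, 4 naive rats) and a black bar at each group mean. Hcar2 rises and Clic2 and Gng12 fall in all rats of both groups, Tcp11l1 falls in 6 MIA rats and 3 of 4 naive rats, and Tnk2 falls in 6 MIA rats while 4 naive rats go up.

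When 1 MIA rat at a time was left out, none of the 7 stayed past the threshold in every refit. Hcar2 passed in 3 of the 6 refits, with a change of 0.62 to 0.81 and an adjusted p of 0.0152 to 0.123. Clic2 passed in 2 (−1.11 to −0.89), Gng12 in 2 (−0.84 to −0.52), probe set 17697904 in 2 (−0.71 to −0.57), Tcp11l1 in 1 (−0.91 to −0.68), probe set 17601861 in 1 (−1.77 to −1.33) and Tnk2 in 0 (−0.84 to −0.74, adjusted p 0.0878 to 0.182). Direction could not change in these refits, because each of the 7 had moved the same way in 6 of 6 MIA rats. Refits without rats 2, 5 and 6 gave 0 calls each, without rat 3 gave 1, without rat 1 gave 5 and without rat 4 gave 17.

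The same rats were also bled on days 2, 21 and 28, and those changes share the day 0 arrays with the day 14 change. Hcar2 in MIA rats differed from day 0 by −0.14, 0.74, 0.85 and 0.99 on days 2, 14, 21 and 28, and in naive rats by 0.19, 0.85, 0.65 and 0.92. Clic2 differed by −0.15, −0.99, −1.84 and −2.32 in MIA rats and by −0.52, −1.12, −1.87 and −2.40 in naive rats. Gng12 gave −0.15, −0.71, −1.37 and −1.27 after MIA and −0.15, −0.59, −1.03 and −0.84 in naive rats, so in both groups these 3 transcripts lay further from day 0 on days 14, 21 and 28 than on day 2. Tcp11l1 gave −0.38, −0.79, −1.15 and −1.29 after MIA and −0.17, −0.29, −0.92 and −0.99 in naive rats. Tnk2 was lower at all 4 times after MIA (−0.43, −0.78, −0.60 and −0.55) and higher at all 4 in naive rats (0.41, 0.38, 0.19 and 0.13).

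Counting the 7 that passed adjustment, 155 probe sets (0.423%) had an unadjusted p under 0.001 in MIA rats, 41 of them higher (0.112%) and 114 lower (0.311%). Of these 155, 132 (85.2%) had the same sign in the naive rats, against 57.2% of all probe sets. The naive rats have day 0 arrays of their own, so this count does not arise from shared controls. Among them, the 12 named transcripts with the largest increase seen in 6 of 6 MIA rats were 0.42 to 0.90 higher. All 12 were also higher in naive rats, by 0.33 to 0.85, and for none of the 12 did the MIA and naive changes differ past adjustment (smallest adjusted p = 0.996). Of the 12 with the largest decrease, 10 were also lower in naive rats.

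Besides Hcar2, the 12 higher transcripts held Cxcr2, Csf3r, Lrg1 and Alox5ap, given with the neutrophil genes below, and 7 others. Klra2, a killer-cell lectin-like receptor of the Ly49 family, ran from 3.10 through 3.68 to 4.07 at day 0 and from 4.00 through 4.42 to 4.87 at day 14 in MIA rats, nearly without overlap, a change of 0.90 ± 0.24 (adjusted p = 0.200) beside 0.83 ± 0.29 in naive rats. Siglec8, a sialic acid-binding lectin, was 0.62 ± 0.15 higher, Fcar, the Fc receptor for IgA, 0.56 ± 0.15, and Mcemp1, a membrane protein of myeloid cells, 0.52 ± 0.12. Fn1, which encodes fibronectin, was 0.62 ± 0.17 higher, Myadm, a marker of myeloid differentiation, 0.45 ± 0.11, and Vim, the intermediate filament vimentin, 0.42 ± 0.11. None of these 7 passed adjustment, and the naive changes were 0.79 for Siglec8, 0.48 for Fcar, 0.52 for Mcemp1, 0.54 for Fn1, 0.57 for Myadm and 0.33 for Vim.

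The largest decrease by size among the named transcripts with an unadjusted p under 0.001 was that of Col1a1, the alpha 1 chain of type I collagen. In MIA rats it ran from 4.56 through a median of 4.83 to 6.27 at day 0 and from 3.47 through 3.81 to 4.43 at day 14. The days did not overlap, and the change was −1.33 ± 0.28 (adjusted p = 0.0640). The 4 naive rats went from 4.34, 4.72, 4.34 and 4.57 to 3.87, 3.95, 3.82 and 3.42, lower in each (−0.73 ± 0.34), and MIA minus naive was −0.61 (95% interval −1.49 to 0.28). Col3a1, of type III collagen, was 0.65 lower (−0.65 ± 0.18, adjusted p = 0.222; naive −0.29). Nek2, a kinase of the centrosome in dividing cells, differed by −0.78 ± 0.16 (adjusted p = 0.0640; naive −0.14), Serpinb2, plasminogen activator inhibitor 2, by −0.73 ± 0.19 (naive −0.32), the homeobox gene Hoxc9 by −0.65 ± 0.15 (naive 0.03), the proteoglycan gene Sdc3 by −0.64 ± 0.15 (naive −0.48), Prr20e by −0.65 ± 0.14 (naive −0.22) and Sec61g, a part of the protein translocation channel, by −0.60 ± 0.16 (naive −0.09). None of these 8 passed adjustment.

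**Figure D2:**
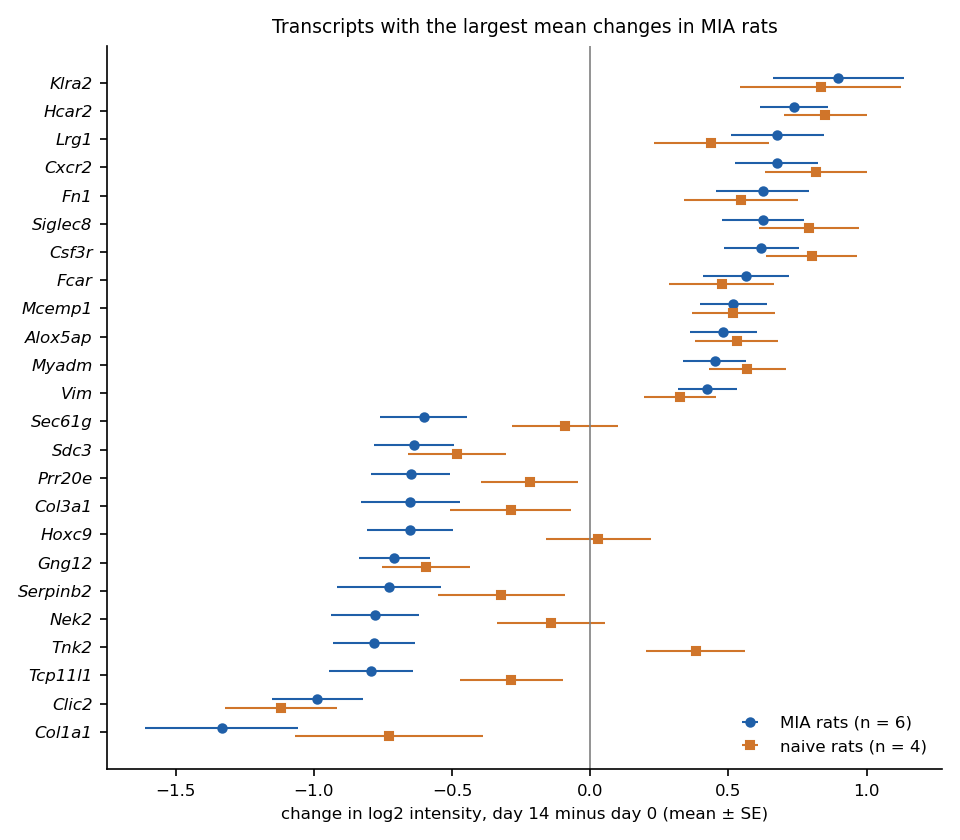
Change in log2 intensity from day 0 to day 14 (mean ± SE) of the 24 named transcripts with the largest changes among those with an unadjusted p under 0.001 and the same direction in 6 of 6 MIA rats (blue circles, 6 MIA rats; orange squares, 4 naive rats). The 12 higher transcripts lie at 0.42 to 0.90 in MIA rats and 0.33 to 0.85 in naive rats, while Tnk2 stands at −0.78 in MIA rats and 0.38 in naive rats.

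Among 14557 genes with 1 symbol, each read from its brightest probe set, 330 were higher (2.27%) and 973 lower (6.68%) at an unadjusted p under 0.05, with a median change of −0.03. This balance moved with the scaling. When all arrays were shifted to the same median it was 686 higher (4.71%) and 582 lower (4%), after a second quantile normalization 645 and 851, and without MIA rat 2 it was 577 and 517. The gene lists below are therefore read against the count of each setting. They are described by counts and medians, and no member of any list other than Tnk2 passed adjustment over all probe sets.

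Neutrophil genes were higher as a list. Of 32 measured, 11 were higher and 0 lower at an unadjusted p under 0.05 (34.4%, against 2.27% of all named genes), 24 of 32 lay above 0 and the median change was 0.24. The median was above 0 in 5 of 6 MIA rats (highest 0.43) and at −0.20 in rat 2. Without rat 2 the count of higher genes was 14 of 32 (43.8%, against 3.96%) with a median of 0.34. After the median shift it was 14 (43.8%, against 4.71%), and after a second quantile normalization 13 (40.6%, against 4.43%). With no replicate block it was 5 (15.6%, against 1.65%). In naive rats 12 of the 32 were higher and 0 lower (4.46% and 4.44% of all named genes), with a median of 0.28 and all 4 rats above 0. The list's mean level per array was 4.44 to 5.03 at day 0 and 4.69 to 5.32 at day 14.

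The 4 members with the smallest p were Csf3r, Cxcr2, Lrg1 and Alox5ap. Cxcr2, the receptor through which neutrophils follow the chemokines Cxcl1 and Cxcl2, ran from 6.11 through 6.66 to 7.00 at day 0 and from 6.72 through 7.34 to 8.02 at day 14. All 6 MIA rats were higher, by 0.45 to 1.02, with a mean change of 0.67 ± 0.15 (adjusted p = 0.0908) and a naive change of 0.82 ± 0.18. Csf3r, the receptor for granulocyte colony-stimulating factor, ran from 6.25 through 6.80 to 7.28 and then from 6.84 through 7.43 to 7.99, higher in 6 of 6 (0.62 ± 0.13, adjusted p = 0.0804; naive 0.80 ± 0.16). Lrg1, a secreted glycoprotein kept in neutrophil granules, differed by 0.68 ± 0.17 (adjusted p = 0.157; naive 0.44), with rat 1 nearly flat at 0.02 and rat 3 at 1.33. Alox5ap, which 5-lipoxygenase needs to make leukotrienes, differed by 0.48 ± 0.12 (adjusted p = 0.175; naive 0.53).

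Further members at an unadjusted p under 0.05 were the gelatinase Mmp9 (0.56), the peptidoglycan-binding Pglyrp1 (0.50), the protease inhibitor Slpi (0.47), the formyl peptide receptor Fpr1 (0.46), the decoy receptor Il1r2 (0.45), Chi3l1 (0.39) and Prok2 (0.39). The calprotectin subunits S100a8 and S100a9 differed by 0.27 and 0.31. Other granule genes of the list lay on both sides of 0 and had no unadjusted p under 0.05. Their changes were −0.34 for Prtn3, −0.16 for Camp, −0.12 for Defa5, −0.11 for Ngp, −0.07 for Ltf, −0.06 for Np4, 0.01 for Lcn2, 0.02 for Ctsg, 0.19 for Elane and 0.30 for Mmp8.

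**Figure D3:**
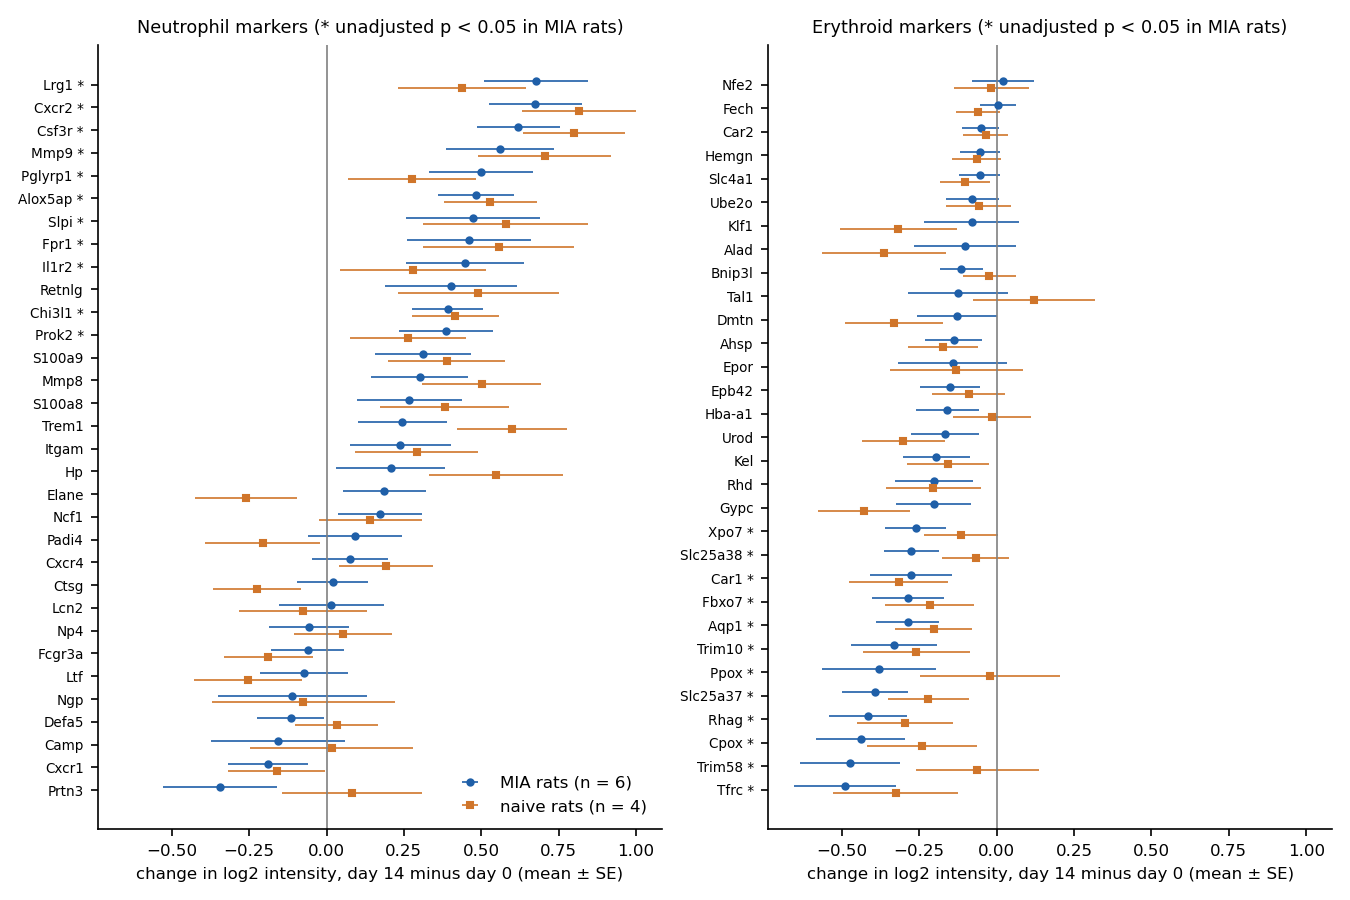
Change in log2 intensity from day 0 to day 14 (mean ± SE) of each measured neutrophil gene (left, 32 genes) and erythroid gene (right, 31 genes) in 6 MIA rats (blue circles) and 4 naive rats (orange squares), with a star at genes with an unadjusted p under 0.05 in MIA rats. There, 11 neutrophil genes are starred and lie above 0, 12 erythroid genes are starred and lie below 0, and the naive rats lie on the same side for most of them.

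Erythroid genes were lower as a list. Of 31 measured, 12 were lower and 0 higher at an unadjusted p under 0.05 (38.7%, against 6.68% of all named genes), 29 of 31 lay below 0 and the median change was −0.17, below 0 in all 6 MIA rats (−0.42 in rat 2 to −0.07). Without rat 2, 8 of the 31 were lower (25.8%, against 3.55%), with a median of −0.15. After the median shift it was 9 (29%, against 4%), and after a second quantile normalization 11 (35.5%, against 5.85%). With no replicate block it was 3 (9.68%, against 5.37% of all named genes in that fit). In naive rats 3 were lower and 0 higher, with a median of −0.16 and all 4 rats below 0.

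Slc25a37, the mitoferrin that brings iron into mitochondria for haem, ran from 8.96 through 9.47 to 9.78 at day 0 and from 8.87 through 9.00 to 9.22 at day 14, lower in 6 of 6 rats (−0.39 ± 0.11, adjusted p = 0.216; naive −0.22). Rhag, of the Rh complex of the red cell membrane, ran from 6.12 through 7.03 to 7.58 and then from 5.73 through 6.67 to 7.09, lower in 6 of 6 (−0.42 ± 0.13, adjusted p = 0.301; naive −0.30). Slc25a38, a mitochondrial glycine carrier, differed by −0.28 ± 0.09 and the haem enzyme gene Cpox by −0.44 ± 0.14. The transferrin receptor gene Tfrc, which is high in reticulocytes and lost as they mature, differed by −0.49 ± 0.16, lower in 5 of 6 rats (adjusted p = 0.364; naive −0.33). Trim58 differed by −0.47 (naive −0.06), the water channel gene Aqp1 by −0.29, Trim10 by −0.33 and Car1, carbonic anhydrase 1, by −0.28. Neutrophil and erythroid transcripts share 1 scale on each array, and whether fewer reticulocytes, more neutrophils or both moved the 2 lists was not tested.

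Promoters are shown for the members of these 2 lists at an unadjusted p under 0.05 whose window holds the binding motif of the factor best known for the lineage. Each window holds 300 bases, most of them before the gene's start, and was taken from RefSeq on build GRCr8. For neutrophil genes the motif was GAGGAA, which reads as TTCCTC on the other strand and is the core bound by PU.1. For erythroid genes it was AGATAA, which reads as TTATCT on the other strand and is bound by GATA factors. Both strands were searched. A window was given for 7 of the 11 neutrophil and 8 of the 12 erythroid members, and 3 and 2 of them hold the motif, in capitals below. Over the whole lists, GAGGAA was in 10 of 23 neutrophil windows (43.5%), 7 of 20 erythroid windows (35%) and 27.6% of 33469 windows of all genes, and AGATAA in 5 of 20 erythroid windows (25%), 4 of 23 neutrophil windows (17.4%) and 11.6% of all. The windows are Csf3r at chr5:143582970-143583269 (plus strand), Pglyrp1 at chr1:87659613-87659912 (plus), Fpr1 at chr1:67422471-67422770 (minus), Trim58 at chr10:43523154-43523453 (plus) and Trim10 at chr20:1703420-1703719 (minus). A match describes the letters of the window only.
Csf3r: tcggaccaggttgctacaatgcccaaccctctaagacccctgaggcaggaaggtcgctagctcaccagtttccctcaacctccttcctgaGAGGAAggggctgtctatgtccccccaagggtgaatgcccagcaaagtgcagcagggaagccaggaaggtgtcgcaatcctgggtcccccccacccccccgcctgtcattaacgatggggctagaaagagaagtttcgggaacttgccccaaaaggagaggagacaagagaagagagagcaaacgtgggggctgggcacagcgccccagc
Pglyrp1: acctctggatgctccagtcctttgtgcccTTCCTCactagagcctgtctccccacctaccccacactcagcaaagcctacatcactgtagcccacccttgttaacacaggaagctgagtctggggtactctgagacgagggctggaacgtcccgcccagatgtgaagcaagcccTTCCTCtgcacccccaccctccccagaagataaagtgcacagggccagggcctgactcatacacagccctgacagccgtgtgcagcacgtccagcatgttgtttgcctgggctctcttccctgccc
Fpr1: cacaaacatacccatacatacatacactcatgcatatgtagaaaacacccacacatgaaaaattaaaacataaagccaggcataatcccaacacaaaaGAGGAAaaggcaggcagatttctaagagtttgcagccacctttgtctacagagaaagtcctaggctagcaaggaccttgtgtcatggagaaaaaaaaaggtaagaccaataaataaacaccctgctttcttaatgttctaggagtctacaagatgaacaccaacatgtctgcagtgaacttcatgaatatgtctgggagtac
Trim58: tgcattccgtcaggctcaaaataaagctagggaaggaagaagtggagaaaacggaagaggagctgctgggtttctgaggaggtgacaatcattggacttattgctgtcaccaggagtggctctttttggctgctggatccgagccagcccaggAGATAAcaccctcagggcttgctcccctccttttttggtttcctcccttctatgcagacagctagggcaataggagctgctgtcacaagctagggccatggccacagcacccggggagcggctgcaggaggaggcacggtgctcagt
Trim10: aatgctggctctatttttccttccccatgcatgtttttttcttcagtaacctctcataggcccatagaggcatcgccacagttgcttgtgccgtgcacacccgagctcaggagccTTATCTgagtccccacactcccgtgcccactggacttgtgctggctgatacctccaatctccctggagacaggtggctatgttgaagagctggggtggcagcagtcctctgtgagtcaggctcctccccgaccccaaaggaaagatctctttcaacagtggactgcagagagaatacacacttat

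Monocyte genes divided. Of 24 measured, 5 were higher and 0 lower at an unadjusted p under 0.05 (20.8%), 12 lay on each side of 0 and the median was 0.00, or 0.11 without rat 2. Cd14, the co-receptor for bacterial lipopolysaccharide, differed by 0.54 ± 0.13 (adjusted p = 0.140; naive 0.40), Lyz2, lysozyme, by 0.40 ± 0.10 (adjusted p = 0.177; naive 0.40), and Ccr2, the receptor that draws monocytes out of marrow, by 0.63 ± 0.20 (naive 0.94). Lyz2 and Ccr2 were higher in 6 of 6 MIA rats and Cd14 in 5 of 6. The complement genes C1qa and C1qb, markers of tissue macrophages, were near background at means of 2.38 and 2.01 and differed by −0.27 and −0.15.

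Of 27 T cell genes 24 lay above 0, with a median of 0.15 and a naive median of 0.30, and 1 was higher and 1 lower at an unadjusted p under 0.05. That count depended on the scaling, with 7 higher after the median shift (25.9%, against 4.71% of all named genes) and 8 after a second quantile normalization (29.6%, against 4.43%), and it was 3 without rat 2 (11.1%, against 3.96%). The lower one was Thy1, a surface glycoprotein of T cells, which differed by −0.46 ± 0.13 in MIA rats, lower in 6 of 6, and by 0.09 in naive rats. Of 27 genes of NK and cytotoxic cells 1 was higher, the pore-forming perforin gene Prf1 (0.39 ± 0.14; naive 0.60), and of 16 B cell genes 0 were on either side. Among 9 plasma cell genes Jchain, which joins IgM and IgA chains, differed by 0.45 ± 0.15 and Xbp1, the regulator of secretory cells, by 0.33 ± 0.14, beside 0.72 and 0.34 in naive rats. Of 25 platelet genes 1 was lower, Sparc, at −1.09 ± 0.37 (naive −0.91), and the list's median was 0.01.

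Sparc is also a product of bone and connective tissue, and the list of vessel wall and fibroblast genes held the collagens. Of its 15 measured genes 5 were lower (33.3%, against 6.68% of all named genes) and 1 higher (6.67%, against 2.27%) at an unadjusted p under 0.05. These counts were the same under both other scalings and without rat 2, where 3.55% of all named genes were lower and 3.96% higher. The lower ones were Col1a1, Col1a2 (−1.13 ± 0.37, lower in 4 of 6 rats; naive −0.79), Col3a1, Thy1 and the endothelial cadherin gene Cdh5 (−0.30 ± 0.10), and the higher one was Fn1. The list's median was −0.12, or −0.05 without rat 2. In naive rats it was −0.14, with 1 gene lower and 1 higher (4.44% and 4.46% of all named genes). Skin genes had 1 of 18 lower at that threshold, with 17 of 18 below 0 and a median of −0.14 beside −0.30 in naive rats, muscle genes 1 of 10 and fat cell genes 1 of 10. What share of the collagen RNA came from cells outside the circulation was not tested.

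**Figure D4:**
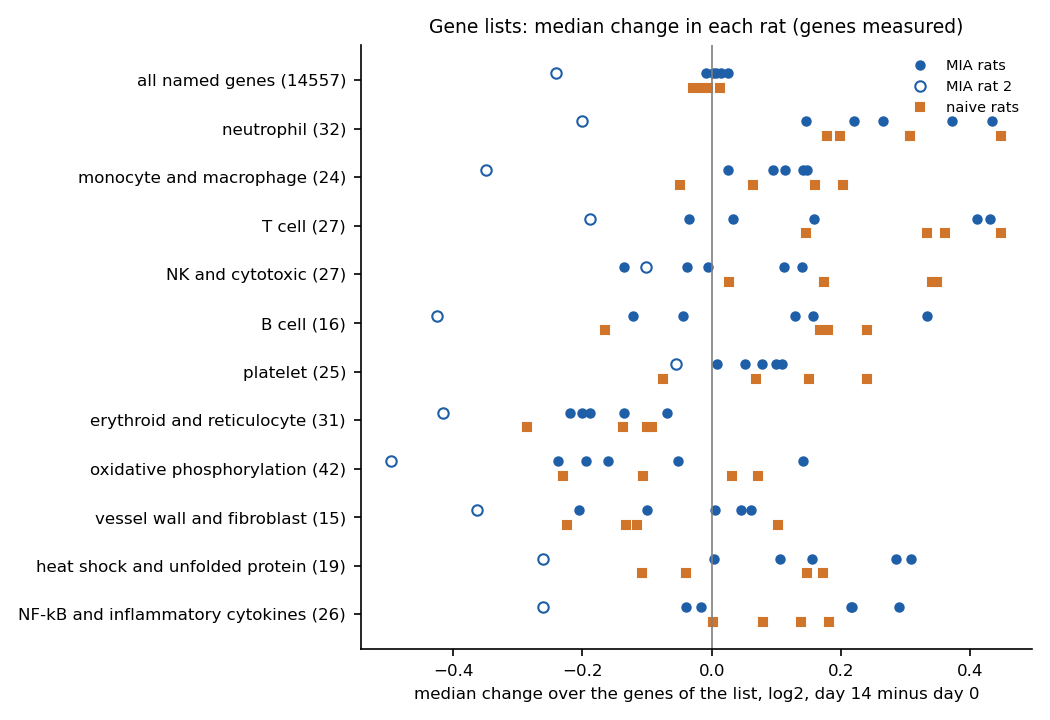
Median change from day 0 to day 14 over the genes of each list, for each MIA rat (blue, with rat 2 as an open circle) and each naive rat (orange), with the number of genes measured in brackets. Rat 2 lies lowest of the MIA rats for all named genes (−0.24) and for most lists, the neutrophil medians of the other 5 MIA rats lie above 0, and the erythroid medians of all rats lie below 0.

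Several lists of inflammatory and stress genes held a larger share of higher members at an unadjusted p under 0.05 than the 2.27% of all named genes (3.96% without rat 2), on counts of 2 to 5 genes each. Of 26 genes of NF-kB and inflammatory cytokines 3 were higher and 0 lower (11.5%, the same without rat 2), with a median of 0.03, or 0.12 without rat 2. They were the cytokine gene Il1b, from 5.55 through 6.12 to 6.66 at day 0 to 5.96 through 6.71 to 7.16 at day 14 (0.53 ± 0.16, higher in 6 of 6; naive 0.57), its receptor antagonist Il1rn (0.47 ± 0.16; naive 0.56) and the inflammasome sensor Nlrp3 (0.37 ± 0.16; naive 0.26). Of 24 AP-1 and immediate early genes, which answer within minutes to stimulation and handling of cells, 5 were higher (20.8%) and 2 lower, with a median of 0.09, and 7 were higher without rat 2, with a median of 0.22. Dusp1, a phosphatase of MAP kinases, differed by 0.49 ± 0.15 and Junb by 0.43 ± 0.14, while Fosl1 differed by −0.52 ± 0.14 and Maff by −0.41 ± 0.14. Changes in single naive rats ran from 0.12 to 0.93 for Dusp1, −0.10 to 0.75 for Junb, −0.52 to −0.07 for Fosl1 and −0.51 to 0.11 for Maff. The 21 interferon-stimulated genes gave 2 higher and 1 lower, the 14 genes of MHC class II presentation 2 and 0, the 15 glucocorticoid-responsive genes 3 and 0 around a median of −0.09, the 16 complement genes 1 and 0, and the 11 clock genes 0 and 0. Without rat 2 the higher genes numbered 0 for MHC class II presentation, 4 for the glucocorticoid response, 2 for complement and 2 for the clock. Of 19 heat shock and unfolded protein genes 5 were higher (26.3%) and 1 lower, with a median of 0.11, against 5 and 0 with a median of 0.22 without rat 2. Among them were the endoplasmic reticulum chaperone Hspa5 (0.29 ± 0.11, higher in 6 of 6; naive 0.45) and Atf4, a transcription factor of the stress response, at −0.23 ± 0.09 (naive 0.13). With no replicate block the higher genes numbered 1 for NF-kB (3.85%, against 1.65% of all named genes) and 1 for the glucocorticoid response. They numbered 0 for interferon and MHC class II, and stayed at 5 for AP-1 and 5 for heat shock. With only the arrays of days 0 and 14 they were 0 for MHC class II, 2 for heat shock, 3 for NF-kB and 4 for AP-1. In naive rats 3 were higher for NF-kB (median 0.11), 4 for AP-1 (0.20), 5 for interferon (0.19) and 1 for MHC class II (0.14). The naive counts were 3 for the glucocorticoid response (0.14), 3 for heat shock (0.08), 2 for complement (0.02) and 1 for the clock (0.12). Of all named genes 4.46% were higher in naive rats.

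Of 42 genes of oxidative phosphorylation 8 were lower and 0 higher (19%, against 6.68%), 33 lay below 0 and the median was −0.14, with −0.04 in naive rats. Without rat 2 the count was 3 lower (7.14%, against 3.55%) and 1 higher with a median of −0.07, after the median shift it was 5 lower (11.9%, against 4%), and after a second quantile normalization 9 (21.4%, against 5.85%). Cyc1, cytochrome c1 of complex III, ran from 4.68 through 5.02 to 5.17 at day 0 and from 4.00 through 4.44 to 4.87 at day 14, lower in 6 of 6, by only 0.01 in 1 of them (change −0.55 ± 0.12, adjusted p = 0.0640; naive 0.05). Cox6c differed by −0.44 ± 0.15 (naive −0.07) and Atp5f1b, of ATP synthase, by −0.27 ± 0.11 (naive −0.27). Of 30 cell cycle genes 5 were lower (16.7%) and 1 higher, with Rrm1 (−0.43) and Tyms (−0.44), both of nucleotide synthesis, and the mitotic genes Cdc20 (−0.56) and Bub1 (−0.43) among them, and 2 were lower without rat 2 (6.67%, against 3.55%). Of 18 histone genes 3 were lower (16.7%, against 6.68%), and 1 without rat 2 (5.56%, against 3.55%). Of 21 glycolysis and hypoxia genes 2 were lower (9.52%) around a median of −0.06, and 1 after the median shift, around −0.01. They included the lactate carrier gene Slc16a1 (−0.49 ± 0.12; naive −0.16). Of 30 proteasome genes 3 were lower (10%, against 6.68%) and 1 higher (3.33%, against 2.27%), or 2 and 2 without rat 2 (6.67% each, against 3.55% and 3.96%). Ribosomal protein genes gave 4 higher (12.1%, against 2.27%) and 1 lower (3.03%, against 6.68%) of 33 in the large subunit and 0 and 0 of 12 in the small one. In the large subunit 7 were higher after the median shift (21.2%, against 4.71%) and 8 after a second quantile normalization (24.2%, against 4.43%). With only the arrays of days 0 and 14 it was 1 (3.03%, against 1.49%).

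Of 27 genes of cartilage, bone and matrix turnover 1 was higher, Tgfb1 (0.30 ± 0.14), and 2 lower, Tnfrsf11a, the receptor RANK of osteoclast precursors (−0.40 ± 0.15), and Bmp2 (−0.29 ± 0.14). These shares, 3.7% and 7.41%, lay near the 2.27% and 6.68% of all named genes. With only the arrays of days 0 and 14, 1 was higher and 0 lower. Of these 27, 17 lay below the array median. Of 18 pain and neurotrophin genes 3 were lower (16.7%, against 6.68%), or 2 without rat 2 (11.1%, against 3.55%) and 0 with only the arrays of days 0 and 14, and the median was −0.02. The 1 that was higher was the prostaglandin receptor gene Ptger4 (0.34 ± 0.15). The 3 lower were the purine receptor gene P2rx7 (−0.38 ± 0.13), the bradykinin receptor gene Bdkrb2 (−0.32 ± 0.14) and Tac1, the precursor of substance P (−0.24 ± 0.11), all 3 of which averaged 1.37 to 2.26 on the log2 scale. In naive rats the median of the pain list was −0.10, below 0 in 4 of 4. Changes there ran from −0.86 to −0.22 for Bdkrb2, −0.33 to 0.49 for P2rx7, −0.16 to 0.40 for Tac1 and 0.05 to 0.60 for Ptger4.

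The MIA change minus the naive change tests what the injected rats did beyond the uninjected ones. At an adjusted p under 0.05, 0 of 36685 probe sets passed, and 1742 (4.75%) had an unadjusted p under 0.05. The smallest adjusted p was 0.584, that of Tnk2. After it came Zfp37, a zinc finger gene, at −0.35 ± 0.15 in MIA rats and 0.69 ± 0.18 in naive rats, Smco4 at −0.52 ± 0.12 and 0.25 ± 0.14, Gp2 at −0.30 ± 0.10 and 0.34 ± 0.12, and Gna13, the alpha 13 subunit of G proteins, at −0.12 ± 0.14 and 0.79 ± 0.17. For Gna13 it was the naive rats that moved, from 5.77, 5.48, 4.98 and 5.04 at day 0 to 6.32, 6.04, 5.91 and 6.17 at day 14, while the MIA rats stayed within 5.29 to 6.07 and 5.46 to 5.94. In the other direction stood Slc18a3, the vesicular acetylcholine transporter (0.33 ± 0.10 and −0.43 ± 0.13), Tead2, a partner of the Hippo pathway (0.37 ± 0.13 and −0.52 ± 0.16), Nodal (0.36 and −0.44), Galntl6 (0.21 and −0.42) and Cyp26a1, which breaks down retinoic acid (0.13 and −0.58), all 5 dim, with group means from 1.30 for Galntl6 to 2.89 for Nodal on the log2 scale. These changes are in the order MIA, then naive. At day 0, before any injection, the median levels of Zfp37, Smco4, Gp2 and Gna13 were already higher in MIA rats than in naive rats. Those of the 5 dim genes were already lower. The day 0 medians were 3.27 in MIA and 2.46 in naive rats for Zfp37, and 2.03 and 1.45 for Gp2. For Tead2 they were 1.97 and 2.60, and for Nodal 2.36 and 2.87. How much of each difference comes from the day 0 levels was not tested.

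The 41 annotated transcripts that the study grouped into patterns A, B and C were chosen on these same arrays for their behaviour over time and treatment, so what follows describes them and supports nothing. Of the 16 in pattern C, 6 were lower (37.5%) and 1 higher (6.25%) at an unadjusted p under 0.05 at day 14 in MIA rats, against 6.68% and 2.27% of all named genes. The median was −0.15 beside 0.29 in naive rats. In naive rats 9 were higher and 0 lower at that threshold (4.46% and 4.44% of all named genes). Between the treatments 9 differed at that threshold, all with the MIA change below the naive change (2.43% of all named genes). The mean level per array at day 0, before injection, was 4.39 to 4.58 in MIA rats and 4.17 to 4.29 in naive rats. Besides Tnk2, pattern C held Retreg1, a receptor for the removal of endoplasmic reticulum (−0.41 ± 0.09, lower in 6 of 6; naive −0.18), and Ppp1cb, a catalytic subunit of protein phosphatase 1 (−0.32 ± 0.10, lower in 6 of 6; naive 0.12), while Ywhah, a 14-3-3 protein, was at 0.27 ± 0.07 (naive 0.25). Of the 14 in pattern A, 1 was higher, Rpl19 (0.26 ± 0.11), and 1 lower (7.14% each), and of the 11 in pattern B, 2 were higher (18.2%). By the study's own symbols Zfp37 has probe sets in both patterns B and C, though the one in pattern B carries no symbol in the platform's annotation. They disagreed, at 0.45 ± 0.16 and −0.35 ± 0.15 in MIA rats.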

How the data were processed

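Per the labels and the methods, blood RNA of 10 rats at 5 days was hybridised to 50 arrays. Background subtraction and quantile normalization were done by the authors, and the deposited values are log2 intensities of 36685 probe sets. Of these, 1401 have values equal to those of another probe set on all 49 fitted arrays, so counts of probe sets are not counts of separate transcripts. How many such copies each count holds was not tested. The submitters' processing notes name oligo 1.36.1, and how probes were summarized is not given in the sources used here. Symbols came from the platform's annotation, where 14824 probe sets have 1 symbol, 829 several and 21032 none. A gene was read from its brightest probe set over the 12 arrays.

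A linear model (limma 3.58.1, R 4.3.3) was fitted to 49 arrays, with 1 mean for each of 10 groups of treatment and day and the rat as a fixed term (31 residual degrees of freedom), and p-values were two-sided and adjusted by Benjamini-Hochberg over all probe sets. The fit was tested on simulated data. The pairing by rat comes from the animal label. After group means were removed, day 0 and day 14 arrays of 1 rat correlated at −0.03 to 0.07, so the rats' own level was weak at these 2 days. Of 972 listed genes 684 were measured, 29 of them found by a synonym, and 1 list is not reported here. The members of the comparison and the gene lists were chosen with earlier results of these data known.

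Named transcripts were those called, up to 12 in each direction with the largest change at an unadjusted p under 0.001 and the same direction in 6 of 6 rats, up to 4 of smallest p for a list, up to 5 in each direction for MIA minus naive, and the patterns A to C. Further list members (such as S100a9, Camp and Col1a2) were named after their values were seen. Alternatives were the rat as no block or as a random block, fewer or all arrays, other scalings, a filter on dim probe sets, other variance settings and leaving out each rat. Leaving out only the day 14 array of MIA rat 2 was added after the data were seen. The rats were separate animals and each sample 1 array, so the errors hold both animal and technical spread.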

Additional observations from a re-analysis of the deposited data

Results flagged for a closer look

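Among 112 sets of values tested for 1 sample that stands apart from its group (changes of the named transcripts per rat, medians of the lists per MIA rat and array medians), 6 had such a sample, and chance places about 1 in 20 sets there. Of the 6, 5 were in MIA rat 2. Its median change was −0.24 over all named genes, −0.35 over the monocyte list, −0.49 over the dendritic cell list and −0.32 over the list of AP-1 and immediate early genes, each far below the other 5 MIA rats, and for Fcar its change was 1.04, far above theirs. The change of Col3a1 was 0.32 in naive rat 3, while the other 3 naive rats were lower.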

How the results depend on the processing

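The count for MIA day 14 against day 0 was 7 and moved with most settings. It was 0 with no replicate block, 0 with the rat as a random replicate block, 0 with only the arrays of days 0 and 14 and 0 with all 50 arrays, 3 with only the MIA arrays and 3 with array weights, 4 after arrays were shifted to the same median, 17 after a second quantile normalization, 17 with no moderation of variances and 19 without dim probe sets. It was 0 to 17 when 1 MIA rat was left out, 5 to 12 when 1 naive rat was left out, and 1 without the day 14 array of MIA rat 2 only. The cause was not tested, beyond that the fits on fewer or on all arrays estimate another variance for the same mean change. Of the 7 transcripts, 6 were among the 19 and all 7 among the 17 after quantile normalization and the 17 with no moderation.

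In naive rats the count was 4. It was 1 with no replicate block, 1 with the random replicate block, 0 with only days 0 and 14, 1 with all 50 arrays, 0 with only naive arrays and 9 with array weights, 2 to 7 without 1 MIA rat and 0 to 13 without 1 naive rat. For the MIA change minus the naive change it was 0 under every setting run, with 772 to 2025 probe sets at an unadjusted p under 0.05. For the named transcripts, 117 results with an unadjusted p under 0.05 in their comparison were followed. Of their 2546 values under the alternatives, 0 reversed direction, 115 lost and 11 gained a call. Settings that change only the variance estimate leave the mean change as it is, so no reversal could occur there. Of 256 list medians, 1 moved by more than the spread between rats, that of the vessel wall and fibroblast list, to −0.29 with brighter members only. That spread includes rat 2 and is widened by it, so this count says little about leaving rat 2 out. Without rat 2 some medians changed sign, such as those of B cell genes (−0.02 to 0.10), proteasome genes (−0.05 to 0.05) and glucocorticoid-responsive genes (−0.09 to 0.03).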
